A study of Mus musculus with 18 samples.

Results

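Oct4 null mouse embryos were followed from the blastocyst at E3.75 to the late blastocyst at E4.5, and their changes in gene expression were set beside those of wild type embryos. The members are the 3 null libraries of each stage, 6 of the 18 libraries of the series, and the 6 wild type libraries of the same stages served as the reference. The series looked for genes that depend on Oct4 in the embryo, in whole embryos of genotype Oct4 -/- or Oct4 +/+ of the CD1 strain. Embryos were flushed from the oviduct or uterus and received no treatment. RNA was isolated with a Picopure kit, reverse transcribed from oligo(dT) and amplified so that reads fall near the 3′ end of a transcript. How the allele was made is not in the labels, so reads from the 3′ end of Pou5f1, the gene for Oct4, do not check the genotype.

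Oct4 is a POU family transcription factor that pluripotent cells need. In the blastocyst an outer epithelium, the trophectoderm, encloses inner cells that separate into epiblast, which builds the embryo, and primitive endoderm, which lines the blastocoel and lays down basement membrane. Oct4 null embryos are known to reach the blastocyst stage without keeping a pluripotent inner cell mass.

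Each stage was deposited as its own table, scaled on its own, so stage and table cannot be told apart in any change described here. The comparison used the 5882 genes found in both tables, 88.5% of the 6648 genes at E3.75 and 89.9% of the 6545 at E4.5, and each library was rescaled to 1000000 over these genes, as counts per 1000000 reads (CPM). The null libraries held 865017 to 1437690 reads at E3.75 and 364936 to 1343054 at E4.5, where library 1 was the shallowest. In whole embryos, fewer cells of a type and less RNA per cell cannot be told apart.

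The spread within groups was uneven. At equal depth, null library 3 differed from a weighted average of its 2 group mates by 1.12 times the sampling variance at E3.75 and by 0.986 times at E4.5. This ratio was 1.45 for both other null libraries at E3.75, and 2.09 and 1.07 for libraries 1 and 2 at E4.5, where library 1 stood apart. In wild type the ratio was 1.12 for library 3 at E3.75 and 1.02 for library C at E4.5. The other wild type libraries were at 1.27 to 1.58. A ratio near 1 is what a mix of the other libraries would give. In the average fitted to null library 3, library 1 had a weight of 0.49 at E3.75 and 0.19 at E4.5. For wild type library 3 of E3.75 it was 0.34, and for C of E4.5 the weight of A was 0.47. By contrast, null library 2 of E4.5 was fitted by library 3 almost alone, with a weight of 6.6e-05 on library 1. Null library 3, null library 2 of E4.5, and wild type libraries 3 of E3.75 and C of E4.5 may thus not be independent replicates. Whether they are was not tested, and if not, p-values from 3 libraries are too small. Counts with the first 2 libraries of each group are given beside the main ones. Null library 1 of E4.5 also held the most adult globin RNA, a mark of maternal blood. Its sum of Hba-a1, Hbb-bs and Hbb-bt was 1099 CPM, against 149 and 364 CPM in the other 2 libraries of the group and 178 to 480 CPM at E3.75.

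Between E3.75 and E4.5, 1112 genes rose (18.9% of those tested) and 1236 fell (21%) in Oct4 null embryos, 39.9% in all, by limma on log2(CPM + 1) at an adjusted p under 0.05. The change was at least 1 on the log2 scale for 474 of the genes that rose and 481 of those that fell. The null libraries of the 2 stages did not overlap for 1472 genes that were higher at E4.5 (25%) and 1623 that were lower (27.6%), 52.6% in all. With the first 2 libraries of each group 500 genes rose and 597 fell. Without the shallow library 1 of E4.5 the counts were 1323 and 1441.

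Among the genes in both tables, most late blastocyst changes were also seen without Oct4. The 766 genes kept at E3.75 only and the 663 kept at E4.5 only were not compared. In wild type embryos 776 genes rose (13.2%) and 1243 fell (21.1%), 34.3% in all, and 1413 genes changed in the same direction in both genotypes (634 with the first 2 libraries). They made up 70% of the 2019 genes that changed in wild type embryos and 60.2% of the 2348 that changed in null embryos. Of the genes that rose in wild type, 575 (74.1%) rose in null embryos, 1 fell and 200 did not pass. Of those that fell in wild type, 838 (67.4%) fell, 3 rose and 402 did not pass. Their median change on the log2 scale was 0.90 in wild type and 0.84 in null embryos for the genes that rose, and -0.87 and -0.69 for those that fell. At least 50% of the wild type log2 change was present in null embryos for 83.9% of the genes that rose and 76.1% of those that fell. Of the 1112 genes that rose in null embryos, 534 did not pass in wild type. At least 50% of the null change was present in wild type for 61.96% of them, with medians of 0.93 in null and 0.58 in wild type. For the 1236 genes that fell in null embryos this share was 80.83%, with medians of -0.88 and -0.71. Across all 5882 genes, which are not independent replicates, Pearson's r between the changes of the 2 genotypes was 0.770. The genotypes share no library but share the tables of both stages.

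**Figure D1:**
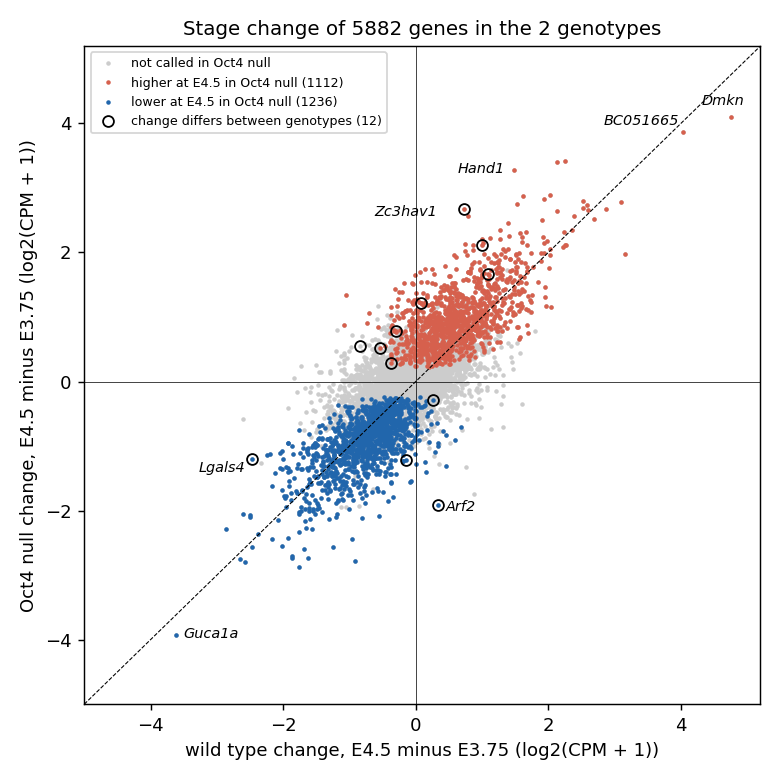
Each point is 1 of 5882 genes, with the wild type change from E3.75 to E4.5 on the x axis and the Oct4 null change on the y axis, both in log2(CPM + 1). Coloured genes passed in null embryos, and 89.75% of those that rose and 97.09% of those that fell changed with the same sign in wild type. The dashed line marks equal change, and the 12 circled genes are those whose change differed between the genotypes.

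The median change over all genes was -0.02 in null and -0.12 in wild type embryos. Scaling with TMM factors moved the wild type median by 0.115, and 987 genes then rose and 955 fell in wild type, while the null counts were 1160 and 1195. Of the genes that passed in wild type in either direction, the share that rose went from 38.4% to 50.8%.

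Among epiblast and pluripotency genes, more fell than rose without Oct4, as in wild type. Of the 24 members measured, 9 fell (Nanog, Klf2, Zfp42, Tbx3, Dppa2, Dppa3, Dppa4, Bmp4 and Trim28), 2 rose (Spp1 and Klf5) and 13 did not pass. The median change was -0.29 in null and -0.43 in wild type embryos, where 11 fell and 3 rose, against medians of -0.02 and -0.12 for all genes. The shares of all genes that fell and rose were 21% and 18.9% in null, and 21.1% and 13.2% in wild type embryos. The first 2 libraries alone gave 5 members that fell and 1 that rose in null embryos. Sox2 and Klf4 were not analysed here, nor was Sox17 of the primitive endoderm, which was kept at E3.75 only.

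Pou5f1 RNA itself was still read in the null libraries. Its level was 224, 289 and 270 CPM at E3.75 and 144, 96.1 and 97.9 CPM at E4.5, so every late library lay below every early one. It fell by 1.22 ± 0.17 (SE) on the log2 scale (limma, adjusted p = 1.96e-04), and in wild type it went from a mean of 515 to 233 CPM, a change of -1.14. Nanog, a homeobox factor of the epiblast, stood at 378, 331 and 351 CPM in null embryos at E3.75 and at 41.6, 64.6 and 70.0 CPM at E4.5. This was among the 12 greatest falls, -2.60 ± 0.18 (SE; limma, adjusted p = 1.82e-06). In wild type Nanog went from 177, 243 and 223 CPM to 65.1, 68.6 and 62.2 CPM, so all null libraries lay above wild type at E3.75 and overlapped with it at E4.5. The difference between the genotypes' changes was -0.91 (95% interval -1.42 to -0.40) and did not pass over all genes (limma, adjusted p = 0.121).

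Dppa3 and Tbx3 fell by less, and Esrrb and Fgf4 did not pass. Dppa3, which guards maternal methylation marks, went from 1381 to 1455 CPM at E3.75 to 424 to 519 CPM at E4.5, a change of -1.55 (limma, adjusted p = 6.27e-07). Tbx3, a T-box factor of the inner cells, went from 43.3, 55.2 and 54.2 CPM to 16.7, 20.8 and 21.1 CPM. Both fell in wild type too, by 1.33 and 1.63 on the log2 scale. Esrrb, a nuclear receptor that sustains self-renewal, was at 41.0 to 49.3 CPM early and 45.9 to 58.3 CPM late, and its change of 0.12 (95% interval -0.30 to 0.54) did not pass. Fgf4, the epiblast ligand that drives primitive endoderm fate, was at 21.1 to 31.0 CPM and then 23.1 to 40.7 CPM, with an interval of -0.29 to 0.92 for its change.

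Spp1, osteopontin, is a secreted matrix protein and, with Klf5, one of the 2 members that rose. Its null libraries held 53.8, 61.0 and 38.7 CPM at E3.75 and 169, 115 and 114 CPM at E4.5, without overlap. The rise of 1.36 ± 0.21 (SE; limma, adjusted p = 4.35e-04) stood beside one of 1.5 in wild type, where levels were higher at both stages (means of 118 and 317 CPM).

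The promoters of Nanog and Spp1 are shown because the 2 genes moved in opposite directions and share the letters ATGCAAA in their windows. The letters lie on one strand or the other and are the octamer ATGCAAAT, the element that POU factors bind, without its last base. The full octamer is in the Spp1 window and not in the Nanog window. The windows are from RefSeq on GRCm38.p6 and run from 250 bases before the start of the gene to 50 after it, both on the plus strand. Nanog lies at chr6:122707239-122707538 with the match at -75 to -69 from the start, and Spp1 at chr5:104435942-104436241 with the match at -210 to -204. Capitals mark the match.
Nanog: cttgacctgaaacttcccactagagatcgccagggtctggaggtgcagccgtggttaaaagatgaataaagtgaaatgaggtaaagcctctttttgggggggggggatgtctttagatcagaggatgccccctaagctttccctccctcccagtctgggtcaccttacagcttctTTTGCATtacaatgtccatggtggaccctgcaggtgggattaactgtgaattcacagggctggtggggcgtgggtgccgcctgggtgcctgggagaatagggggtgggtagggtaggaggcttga
Spp1: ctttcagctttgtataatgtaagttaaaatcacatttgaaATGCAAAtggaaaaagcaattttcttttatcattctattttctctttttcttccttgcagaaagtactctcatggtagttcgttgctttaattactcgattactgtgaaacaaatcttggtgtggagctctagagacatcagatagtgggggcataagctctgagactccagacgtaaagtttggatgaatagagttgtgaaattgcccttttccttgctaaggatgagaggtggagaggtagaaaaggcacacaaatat

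Such a match was in 148 of 4414 genes with a window (3.35%), in 30 of 845 that rose in null embryos (3.55%) and in 30 of 920 that fell (3.26%). A match describes letters in this window and does not say that a factor binds there.

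In the primitive endoderm list about as many genes rose in null embryos as in wild type, and the early factor Gata6 was among 3 that fell. Of 21 members 10 rose, 3 fell (Gata6, Dab2 and Cited1) and 8 did not pass, where 18.9% of all genes rose and 21% fell. In wild type 9 rose and 2 fell, and 9 of the genes that rose did so in both. The median change was 0.60 in null and 0.64 in wild type embryos. With the first 2 libraries 8 rose and 3 fell in null embryos.

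Gata6, the factor that starts the lineage, was at 136, 141 and 158 CPM at E3.75 and at 25.0, 61.5 and 76.8 CPM at E4.5. The fall of 1.54 ± 0.32 on the log2 scale (SE; limma, adjusted p = 0.00275) stood beside one of 1.14 in wild type. Gata4, which acts after Gata6, was at 7.02, 11.8 and 7.04 CPM early and at 19.4, 19.2 and 18.8 CPM late. Its rise of 1.10 (limma, adjusted p = 0.0195) rested on few reads and did not pass with the first 2 libraries (adjusted p = 0.189), with DESeq2 (0.0714) or without any one of 4 of the 6 libraries (0.0524 to 0.0787). Wild type levels of Gata4 were higher, with means of 20.4 and 38.3 CPM. Pdgfra, the receptor of committed primitive endoderm, was at 5.85 to 12.7 CPM early and 5.55 to 10 CPM late, and the interval of its change ran from -1.27 to 0.59.

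Several matrix genes of this list rose without Oct4, though whole embryos do not show which cells held their RNA. Lama1, a laminin chain, went from 51.5, 52.95 and 47.2 CPM to 161, 108 and 127 CPM in null embryos, a rise of 1.35 ± 0.17 (SE; limma, adjusted p = 1.20e-04). Wild type embryos held more of it at both stages, with means of 117 and 317 CPM, and a like change of 1.45. Col4a1, a collagen IV chain, went from 160 to 206 CPM to 272 to 324 CPM, a rise of 0.66. Sparc, a collagen-binding matrix protein, went from 66.7, 78.7 and 78.9 CPM to 180, 159 and 145 CPM. Apoe, a lipid carrier, went from 44.4 to 49.3 CPM to 117 to 126 CPM, and Aqp8, a water channel, from 53.8, 67.7 and 56.3 CPM to 311, 577 and 465 CPM. The rise of Aqp8, 2.87 ± 0.20 (SE; limma, adjusted p = 1.81e-06), was larger in size than that of 1.62 in wild type, but the difference of 1.25 (95% interval 0.60 to 1.89) did not pass over all genes (limma, adjusted p = 0.0956).

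Of the 18 basement membrane and matrix genes measured, some of them also in the primitive endoderm list, 8 rose and none fell in null embryos, with a median change of 0.63. In wild type 7 rose and 1, Fn1, fell, with a median of 0.47. Of all genes 18.9% rose and 21% fell in null embryos, and 13.2% and 21.1% in wild type. The genes that rose include P4hb, a subunit of the enzyme that hydroxylates collagen, from 680 to 759 CPM to 1257 to 1392 CPM. They also include Ctsl, a cathepsin, from 2273, 2450 and 2421 CPM to 5241, 6347 and 6216 CPM.

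Trophectoderm genes rose in both genotypes. Of 27 members 14 rose and 3 fell (Tead4, Lgals4 and Ovol1) in null embryos, and 15 rose and 2 fell in wild type, with 13 rising in both. Over all genes 18.9% rose and 21% fell in null embryos, and 13.2% and 21.1% in wild type. The median change was 0.30 in null and 0.41 in wild type embryos. The first 2 libraries gave 12 and 2. The summed level of 5 defining markers (Cdx2, Eomes, Krt8, Krt18 and Tfap2c) went from 5931 to 6853 CPM to 11804 to 12910 CPM in null embryos, most of it keratins.

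Krt8 and Krt18, structural genes of the epithelium, rose, and the 2 factors that define the lineage did not pass. Krt8, a keratin, went from 1222, 1317 and 1206 CPM to 2436, 2432 and 2484 CPM, a rise of 0.97 ± 0.07 (SE; limma, adjusted p = 1.61e-06) beside 1.05 in wild type. Its partner Krt18 rose by 1.02, from 3994 to 4786 CPM to 8462 to 9736 CPM. Cdx2 was at 499, 569 and 582 CPM and then 508, 675 and 661 CPM, with overlap and an interval of -0.10 to 0.41 for its change. Without null library 1 of E4.5 its change was 0.28 and passed (limma, adjusted p = 0.00782). Eomes was at 154 to 189 CPM early and 175 to 186 CPM late, with an interval of -0.23 to 0.30.

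Hand1, a factor of trophoblast giant cells, was among the greatest rises. It was at 4.68, 9.56 and 11.97 CPM in null embryos at E3.75 and at 91.6, 89.2 and 83.6 CPM at E4.5, which is 10.1-fold by the means. The rise was 3.28 ± 0.30 on the log2 scale (SE; limma, adjusted p = 1.16e-05), and in wild type it was 1.47, from 13.3, 17.2 and 12.3 CPM to 27.9, 39.2 and 63.1 CPM. All 3 null libraries of E4.5 lay above all 3 wild type libraries. The difference of the changes was 1.80 (95% interval 0.83 to 2.77) with an adjusted p of 0.107 by limma. Lgals3, a galectin, rose by 2.11, from 81.0 to 83.8 CPM to 273 to 530 CPM with library 1 the highest, and Tspan8, a tetraspanin of epithelia, rose by 1.33.

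**Figure D2:**
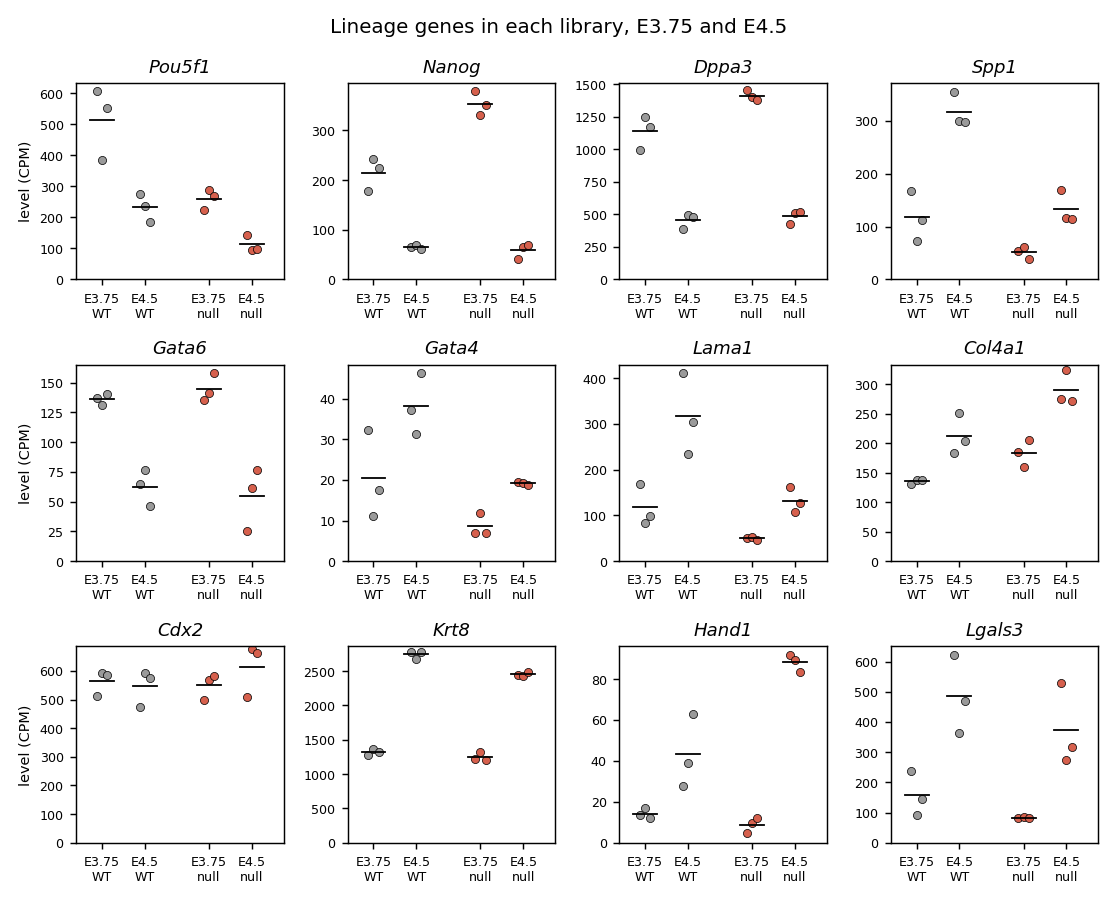
Level in CPM of 12 lineage genes in each library (points) with the group mean (bar), for wild type (grey) and Oct4 null (red) embryos at E3.75 and E4.5. Nanog, Dppa3 and Gata6 fall and Spp1, Lama1, Krt8, Hand1 and Lgals3 rise in both genotypes, while Cdx2 overlaps between stages.

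Of 36 genes of the cytoskeleton and cell junctions 17 rose and 3 fell (Ctnna1, Pkp2 and Tpm4) in null embryos, against 18.9% and 21% of all genes, and 19 rose and 1 fell in wild type, with 16 rising in both. The list shares its keratins and claudins with the trophectoderm list. Tmsb4x, which binds actin monomers, went from 249, 293 and 265 CPM to 949, 952 and 972 CPM, a rise of 1.83 ± 0.09 (SE; limma, adjusted p = 1.47e-07). Pfn1, profilin, rose by 1.17 from 271 to 286 CPM to 610 to 655 CPM. Lgals1, a galectin, rose by 1.64, from 1561 to 1951 CPM to 4624 to 6803 CPM.

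Of the signalling genes, few passed the filter that the tables carry. From the list of FGF and MAPK targets 4 of 20 were in both tables, Etv5, Fgf4 and the receptors Fgfr1 and Fgfr2. Targets such as Spry2, Dusp6, Etv4 and Egr1 were not, and of the 4 only the 2 receptors rose. Fgfr1 went from 79.6, 86.8 and 77.5 CPM to 169, 161 and 171 CPM, a rise of 1.03, and Fgfr2 from 72.8 to 87.8 CPM to 138 to 161 CPM, a rise of 0.90. Of 12 Nodal, BMP and Wnt genes 3 rose and 3 fell, near the 18.9% and 21% of all genes. Wnt7b, a Wnt ligand, went from 28.1 to 31.0 CPM to 74.6 to 74.9 CPM, a rise of 1.30 (limma, adjusted p = 1.66e-04). Wnt6 rose by 1.07, a call that was lost without E3.75 null library 3 (adjusted p = 0.0573) or in the fit to the first 2 libraries (0.0921), and Pcsk6, a protease that matures Nodal, rose by 0.69. Bmp4, a ligand, and Id3, a target of BMP signalling, fell with Gsk3b, a kinase of the Wnt pathway. Id3 went from 64.4, 71.3 and 66.9 CPM to 36.1, 33.8 and 24.1 CPM and fell by 1.10 on the log2 scale, but by 0.55 with reads thinned to the shallowest library, where it did not pass (adjusted p = 0.219).

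Genes that take up and split glucose rose in both genotypes. Of 12 glycolysis and glucose uptake genes 11 rose, none fell and Hk2 did not pass in null embryos, with a median change of 0.92. In wild type 10 rose with a median of 1.01, and all 10 rose in null embryos too. This became 7 in null and 9 in wild type embryos with the first 2 libraries. With all libraries 18.9% of all genes rose and 21% fell in null embryos, against 13.2% and 21.1% in wild type. Slc2a1, the glucose transporter GLUT1, went from 30.4, 41.9 and 36.6 CPM to 122, 125 and 129 CPM, a rise of 1.77 ± 0.17 (SE; limma, adjusted p = 1.56e-05). Ldha, lactate dehydrogenase A, went from 8.19, 13.2 and 3.52 CPM to 52.7, 43.8 and 49.7 CPM, and Eno1, enolase, from 7.35 to 17.6 CPM to 45.4 to 61.0 CPM. Pkm, pyruvate kinase, rose by 0.67.

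Transcripts of the mitochondrial genome also rose. Of 9 members 8 rose in null embryos, the exception being mt-Rnr2, and 9 rose in wild type, against 18.9% and 13.2% of all genes. The 9 transcripts together made up 3.88%, 3.66% and 3.96% of a library in null embryos at E3.75. At E4.5 the share was 7.01%, 5.33% and 5.796%, with library 1 the highest. In wild type it was 3.748% to 4.31% and then 6.70% to 8.38%. mt-Nd2, a subunit of complex I, went from 2470, 2291 and 2513 CPM to 5264, 4513 and 4873 CPM, a rise of 1.01 ± 0.07 (SE; limma, adjusted p = 2.02e-06) beside 1.26 in wild type.

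The nuclear genes of respiration moved by less. Of 50 respiratory chain genes 18 rose and 4 fell in null embryos, with a median change of 0.14, and 20 rose and 2 fell in wild type. These null counts became 9 and 1 with the first 2 libraries. Ndufb8, of complex I, rose by 1.31, from 149 to 164 CPM to 378 to 408 CPM, and Atp5c1, of the ATP synthase, by 0.66. Of 23 genes of the TCA cycle 7 rose and 3 fell in null embryos, and 4 rose and 6 fell in wild type, where TMM scaling gave 9 and 3. The wild type counts lay near the 13.2% and 21.1% of all genes, and in null embryos 18.9% of all genes rose and 21% fell. Pdha1, the pyruvate dehydrogenase subunit that feeds the cycle, went from 787, 972 and 891 CPM to 494, 482 and 485 CPM and fell by 0.85 on the log2 scale. Ogdh and the succinate dehydrogenase subunits Sdha and Sdhc rose by 0.98, 0.71 and 0.50 in null embryos (Sdhc not with the first 2 libraries, adjusted p = 0.0757), and in wild type their changes of 0.31, 0.21 and 0.26 did not pass. The differences of 0.68, 0.50 and 0.24 did not pass either (limma, adjusted p = 0.127, 0.232 and 0.475).

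Serine, glycine and amino acid genes moved both ways, 7 up and 7 down of 25, and 7 each in wild type. Over all genes the null shares were 18.9% up and 21% down. Psat1, an enzyme of serine synthesis, went from 1868, 2044 and 2057 CPM to 580, 692 and 692 CPM, a fall of 1.61 ± 0.09 on the log2 scale (SE; limma, adjusted p = 4.05e-07), beside 1.06 in wild type. The difference was -0.54 (limma, adjusted p = 0.0759). Asns, asparagine synthetase, fell by 1.09 on that scale. Gcat, which breaks down threonine's product to glycine, rose by 2.23, from 30.4, 44.1 and 38.0 CPM to 216, 175 and 150 CPM, and Cbs, of transsulfuration, rose by 1.78. Of 21 sterol and fatty acid genes 5 fell and 2 rose in null embryos, and 8 fell and 0 rose in wild type, so the null share that fell was near the 21% of all genes. Nsdhl, of sterol synthesis, fell by 0.91 and Acly, which makes cytosolic acetyl-CoA, by 0.85 on the log2 scale, and with the first 2 libraries 1 gene of the list fell. Nsdhl did not pass there (limma, adjusted p = 0.0646), nor did Acly with thinned reads (0.0568).

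**Figure D3:**
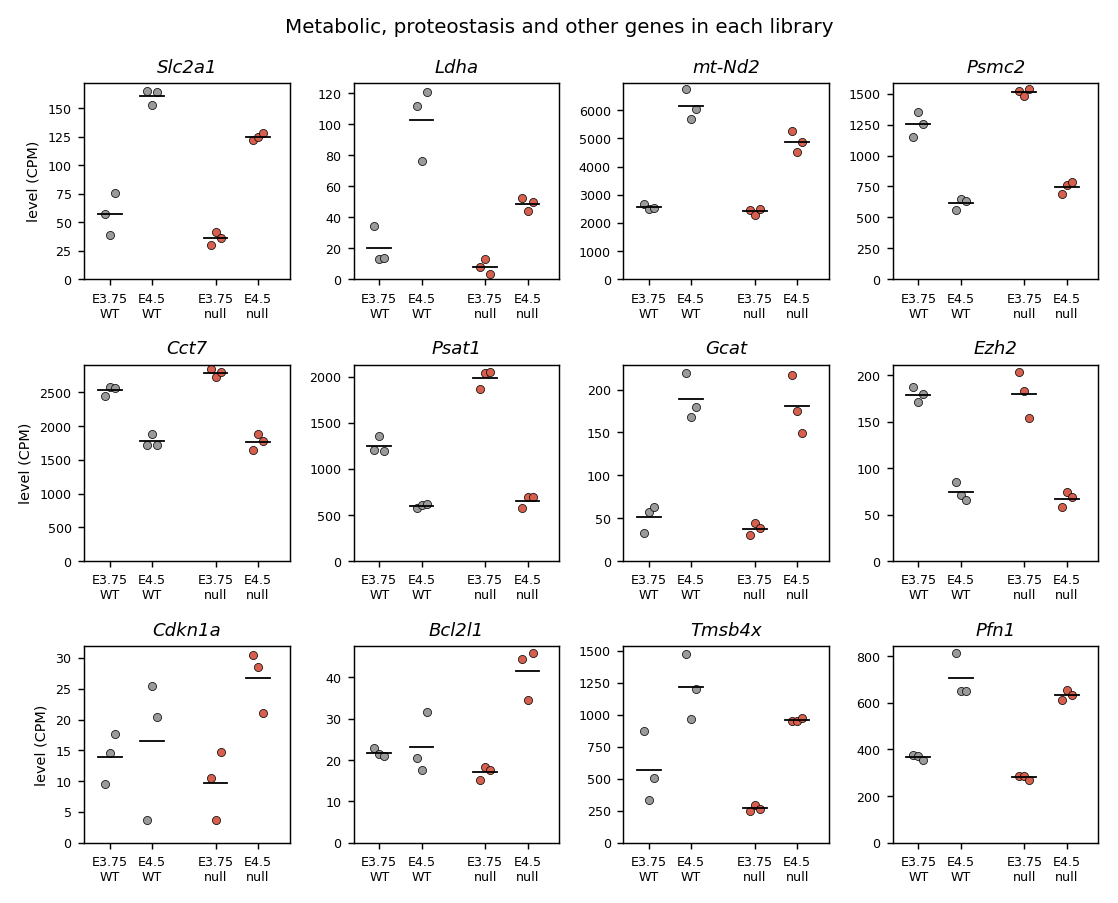
Level in CPM of 12 genes of metabolism, protein turnover, chromatin, cell death and the cytoskeleton in each library (points) with the group mean (bar), in wild type (grey) and Oct4 null (red) embryos at 2 stages. Slc2a1, Ldha, mt-Nd2, Gcat and Tmsb4x rise and Psmc2, Cct7, Psat1 and Ezh2 fall in both genotypes, while Bcl2l1 and Cdkn1a rise by the test in null embryos and not in wild type.

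Genes of protein turnover and folding fell in both genotypes. Of 33 proteasome genes 22 fell and 4 rose (Psmb2, Psmd2, Psme1 and Psme3) in null embryos, with a median change of -0.49, and 26 fell and 1 rose in wild type. All 22 fell in both, while 21% of all genes fell and 18.9% rose in null embryos, and 21.1% and 13.2% in wild type. The first 2 libraries gave 14 that fell and 2 that rose. Psmc2, an ATPase of the 19S cap, went from 1518, 1480 and 1535 CPM to 691, 765 and 782 CPM, a change of -1.02 ± 0.08 (SE; limma, adjusted p = 2.50e-06) beside -1.03 in wild type. Psmd8, Psmc5 and Psmc3 of the same cap fell by 0.79, 0.74 and 0.64 on the log2 scale.

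Of 20 heat shock and chaperonin genes 14 fell and none rose in null embryos, and 13 of the 14 fell in wild type too. The median was -0.53, and with the first 2 libraries 12 fell. Cct7, a subunit of the chaperonin that folds actin and tubulin, went from 2850, 2723 and 2806 CPM to 1651, 1877 and 1784 CPM, a change of -0.66 (limma, adjusted p = 2.55e-05). Of 32 genes of ribosome biogenesis and translation 14 fell and 2 rose, and 13 fell in both genotypes. For both lists, 21% of all genes fell and 18.9% rose in null embryos, and 21.1% and 13.2% in wild type. Eif5, a translation initiation factor, was one of the greatest falls of an abundant gene, from 473, 510 and 512 CPM to 91.6, 106 and 108 CPM. Its change was -2.28 ± 0.11 (SE; limma, adjusted p = 1.47e-07) and -1.56 in wild type, and the difference of -0.72 had an adjusted p of 0.0929. Ncl, nucleolin, fell by 1.09 and Nhp2, of small nucleolar particles, by 0.81 on that scale, while Eef1a1, an elongation factor with many near-identical copies in the genome, rose by 0.66.

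Chromatin genes fell more often than they rose, 8 and 5 of 16, where wild type had 6 and 3. Over all genes the null shares were 21% and 18.9%. Ezh2, the methyltransferase of Polycomb complex 2, went from 204, 183 and 154 CPM to 58.3, 73.8 and 69.3 CPM, a change of -1.41 (limma, adjusted p = 4.16e-05). Its partner Eed fell by 0.77 and Setdb1, a histone H3 methyltransferase, by 1.63 on the log2 scale. Fitted to the first 2 libraries, 3 fell and 0 rose, and Eed did not pass (adjusted p = 0.0562).

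Counts of cell cycle and cell death genes also depended on which libraries were fitted. Of 28 cell cycle genes 12 rose and 3 fell in null embryos, and 4 rose and 6 fell in wild type (8 and 5 with TMM scaling). Shares over all genes were 18.9% and 21% in null embryos, and 13.2% and 21.1% in wild type. In null embryos 1 rose and 1 fell with the first 2 libraries, where 500 of all 5882 genes rose and 597 fell. No member passed the test of a difference between the genotypes. Cdk4, a G1 kinase, rose by 0.54, from 667 to 712 CPM to 849 to 1097 CPM, and Plk1, a mitotic kinase, by 0.94, and neither passed with the first 2 libraries (limma, adjusted p = 0.057 and 0.064). Ccna2, cyclin A2, went from 330, 302 and 337 CPM to 133, 185 and 243 CPM and fell by 0.83 on the log2 scale.

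Among 12 p53 targets and genes of apoptosis 3 rose and 5 fell in null embryos, and 1 rose and 2 fell in wild type. Shares over all genes were 18.9% and 21% in null embryos, and 13.2% and 21.1% in wild type. The first 2 libraries gave 1 that rose and 0 that fell. Bcl2l1, which blocks cell death, went from 15.2, 18.4 and 17.6 CPM to 44.4, 34.6 and 45.9 CPM, a rise of 1.23 (limma, adjusted p = 0.00178, and 0.0513 with the first 2 libraries). Cdkn1a, the cell cycle inhibitor p21, went from 10.5, 3.68 and 14.8 CPM to 30.5, 28.5 and 21.1 CPM, a rise of 1.53 (limma, adjusted p = 0.0142, and 0.194 with thinned reads). Their changes in wild type were 0.05 and -0.06, and neither difference passed (limma, adjusted p = 0.189 and 0.337). Bcl2l11, a BH3 protein that promotes death, fell by 1.17 and Mdm2, the ligase that degrades p53, by 0.82 on the log2 scale. Mdm2 did not pass without E3.75 null library 1 (adjusted p = 0.0581) or 2 (0.0523), with the first 2 libraries (0.0972) or with thinned reads, where its change was -0.49 (0.283). Bcl2l11 did not pass without E3.75 null library 1 (0.0518), with the first 2 libraries (0.0928) or with thinned reads (0.0854).

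Of 25 endocytic and lysosomal genes 8 rose and 6 fell, beside 18.9% and 21% of all genes. Npc2, which moves cholesterol out of lysosomes, went from 3458 to 3549 CPM to 1906 to 2393 CPM, a change of -0.66 (limma, adjusted p = 1.14e-04). Dab2, an endocytic adaptor, went from 935 to 1030 CPM to 583 to 691 CPM, and its change of -0.63 stood beside -0.25 in wild type, which did not pass. Cd63, a lysosomal tetraspanin, fell by 0.50 on the log2 scale. The first 2 libraries gave 1 that rose and 4 that fell.

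**Figure D4:**
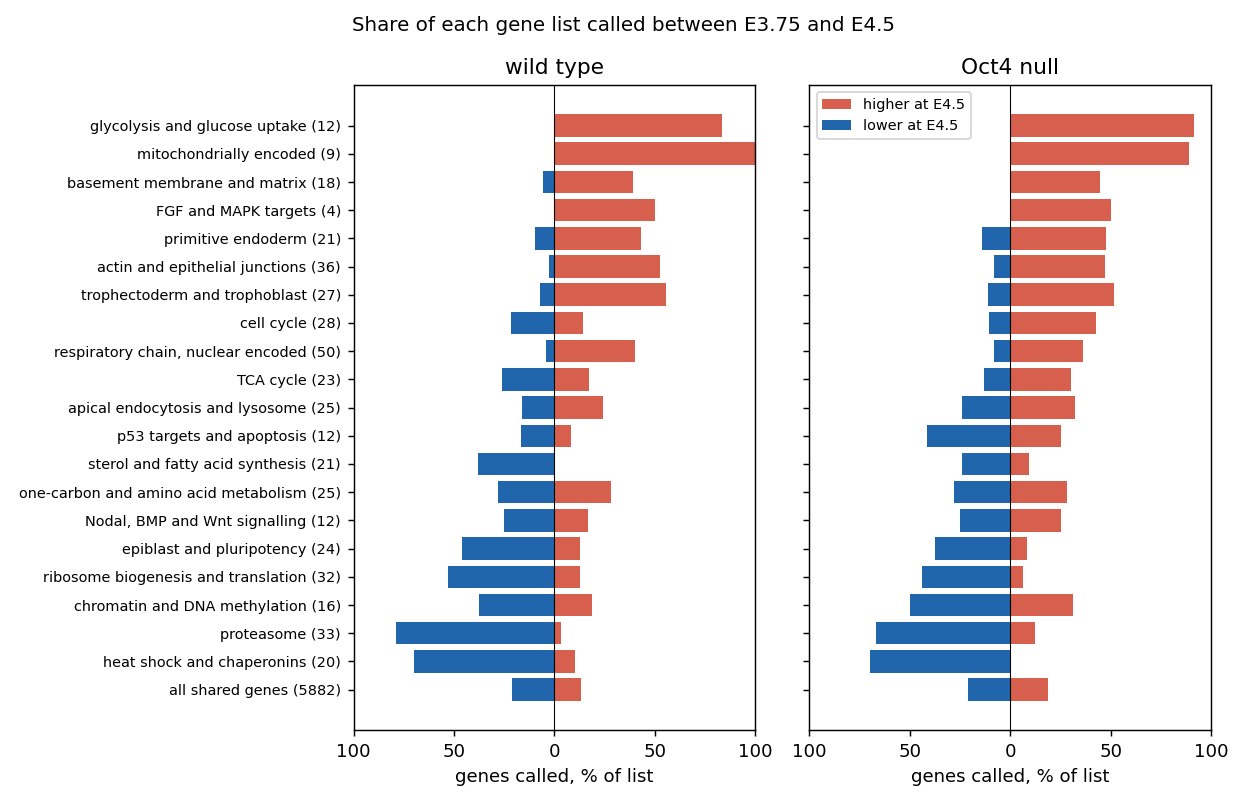
Share of the measured members of each gene list (number in brackets) that rose (red, right) or fell (blue, left) from E3.75 to E4.5, in wild type and Oct4 null embryos, in percent. In null embryos 11 of 12 glycolysis genes and 8 of 9 mitochondrial transcripts rose and 22 of 33 proteasome genes fell, against 18.9% and 21% of all genes at the bottom.

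The greatest rises in null embryos were of genes that rose in wild type as well. Dmkn, dermokine, a secreted protein of epithelia, went from 22.2, 14.0 and 17.6 CPM to 441, 250 and 294 CPM, a rise of 4.10 ± 0.23 (SE; limma, adjusted p = 4.76e-07), and by 4.76 in wild type. BC051665 went from 27.2 to 31.0 CPM to 371 to 536 CPM, a rise of 3.87. The rest of the 12 were Cdk18, a kinase (3.41), Pdlim4, an actin-binding protein (3.4), Hand1, Bcat2, which starts the breakdown of branched amino acids (2.90), Aqp8, Spint1, an inhibitor of epithelial proteases (2.83), H2-Q7, an MHC class I gene (2.80), Xbp1, a factor of the unfolded protein response (2.78), Fam216a (2.75) and S100a14 (2.74). All 12 also rose in wild type, by 1.47 to 4.76.

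Among the 6 greatest rises of abundant genes was Adh1, an alcohol dehydrogenase, which went from 1937, 2305 and 2116 CPM to 6934, 8743 and 8285 CPM. Its rise was 1.91 ± 0.09 (SE; limma, adjusted p = 1.47e-07) and 1.08 in wild type, and the difference of 0.83 did not pass (limma, adjusted p = 0.0773). BC053393 rose by 1.99, from 217 to 245 CPM to 785 to 1210 CPM.

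First among the 12 greatest falls was Guca1a, a guanylate cyclase activator known from photoreceptors. It went from 322, 367 and 327 CPM to 25.0, 19.2 and 20.3 CPM, a change of -3.92 ± 0.16 (SE; limma, adjusted p = 3.82e-08), beside -3.62 in wild type. Stag2, a cohesin subunit, went from 51.5, 73.5 and 65.5 CPM to 2.77, 11.5 and 12.8 CPM, a change of -2.88. Pramel5, of a gene family of the early embryo, went from 308 to 324 CPM to 27.8 to 57.7 CPM, and Ypel2 from 177 to 228 CPM to 29.2 to 36.1 CPM. Sgpp1, a sphingosine phosphate phosphatase, fell by 2.56 on the log2 scale, as did Pnpla2, the lipase that opens fat droplets.

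The other greatest falls were Nanog, Gm11517, Chchd5, Trmt10b, Tbc1d15 and Pex3. The last 3 were at 0 CPM in the shallow null library 1 of E4.5, where 1 read was worth 2.77 CPM. Their levels in the other late libraries were 8.46 and 10.5, 12.3 and 15.8, and 6.92 and 6.78 CPM. Tbc1d15 lost its call without any one of the 3 null libraries of E3.75 (limma, adjusted p = 0.0574 to 0.0753) and with a pseudocount of 0.1 (0.0564), and Trmt10b without E3.75 null library 1 (0.0915). Among abundant genes Gpd1l, a glycerol phosphate dehydrogenase, went from 823 to 933 CPM to 162 to 180 CPM, a change of -2.37 in both genotypes. Timd2, a ferritin receptor, went from 3527, 2896 and 3099 CPM to 635, 895 and 838 CPM. Trim43c and Timm13, an import chaperone of mitochondria, fell by 1.95 and 1.82 on that scale.

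The test of a difference between the stage changes of the 2 genotypes called 12 genes (0.204%), 9 with a higher change in null embryos (0.153%) and 3 with a lower one (0.051%), and 844 genes had an unadjusted p under 0.05. With TMM factors 14 genes passed, 4 higher and 10 lower, and 7 of the 12 were among them. That scaling moved the median difference by -0.114, and whether this shift accounts for the lower calls was not tested. edgeR on the recovered reads called 42, 10 higher and 32 lower, and DESeq2 45, 12 higher and 33 lower. Each had 11 of the 12 among them, but more calls were lower than higher, the reverse of the main fit. None passed by limma with the first 2 libraries of each group, where 338 genes had an unadjusted p under 0.05. Leaving out 1 library gave 2 to 39 calls, with 31 without null library 1 of E4.5 and 39 without wild type library B of E4.5.

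Zc3hav1 and Gjb5 kept their call under every alternative but the first 2 libraries. Zc3hav1, an antiviral RNA-binding protein, was at 11.7, 19.1 and 20.4 CPM in null embryos at E3.75 and at 130, 103 and 102 CPM at E4.5. In wild type it went from 43.8, 36.1 and 35.1 CPM to 61.4, 58.8 and 71.5 CPM, so the null libraries lay below wild type early and above it late. The difference of the changes was 1.94 ± 0.32 (SE; limma, adjusted p = 0.0146). Gjb5, connexin 31.1 of trophoblast gap junctions, went from 112, 119 and 148 CPM to 322, 268 and 295 CPM in null embryos. In wild type it was at 234 to 258 CPM early and 247 to 268 CPM late, and the difference was 1.14 ± 0.18 (SE; limma, adjusted p = 0.0114).

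Lgals4, Gm16559 and Tubb5 lay apart from wild type at E3.75 and near or across its level at E4.5. Lgals4, a galectin of the trophectoderm, fell in both genotypes, from 253, 248 and 239 CPM to 103, 116 and 103 CPM in null embryos and from 410 to 441 CPM to 53.9 to 114 CPM in wild type. The difference was 1.28 ± 0.25 (SE; limma, adjusted p = 0.0365). Gm16559 went from 84.6 to 89.4 CPM to 308 to 438 CPM in null and from 125 to 185 CPM to 269 to 359 CPM in wild type embryos. Tubb5, a tubulin, rose from 723, 864 and 802 CPM to 988, 972 and 962 CPM in null embryos and fell in wild type, from a mean of 1327 to 1016 CPM. Its null call was lost without E3.75 null library 1 (limma, adjusted p = 0.0631) or 3 (0.0563) and with the first 2 libraries (0.161).

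Others moved apart or crossed. Arf2, a small GTPase of the Golgi, went from 55.0, 36.8 and 46.5 CPM to 16.7, 7.69 and 11.3 CPM in null embryos, while wild type stood at 17.1 to 25.8 and then 25.5 to 29.7 CPM. The difference was -2.25 ± 0.43 (SE; limma, adjusted p = 0.0323). Rbm8a, of the exon junction complex, went from 151 to 160 CPM to 61.5 to 69.4 CPM in null embryos and was at 97.1 to 126 and 87.4 to 110 CPM in wild type. Tdrp fell in null embryos and rose in wild type, with a difference of -0.55. Dctn2, of dynactin, and Emc8, of the membrane protein complex of the endoplasmic reticulum, were at 111 to 133 and 80.2 to 88.7 CPM in null embryos at E3.75, and at 195 to 228 and 116 to 128 CPM at E4.5. In wild type their means went from 188 to 152 CPM and from 134 to 91.5 CPM. Mpv17l2, a mitochondrial membrane protein, was at 93.4 to 97.2 CPM early and at 216, 105 and 122 CPM late in null embryos, with library 1 the highest, and its change of 0.56 did not pass there (limma, adjusted p = 0.0686, and 0.0144 without E4.5 null library 2). In wild type it fell from a mean of 134 to 74.8 CPM, and the difference was 1.40. The last gene, Cstb, a cathepsin inhibitor with a difference of 0.57, falls outside the naming rule and is named after its values were seen.

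**Figure D5:**
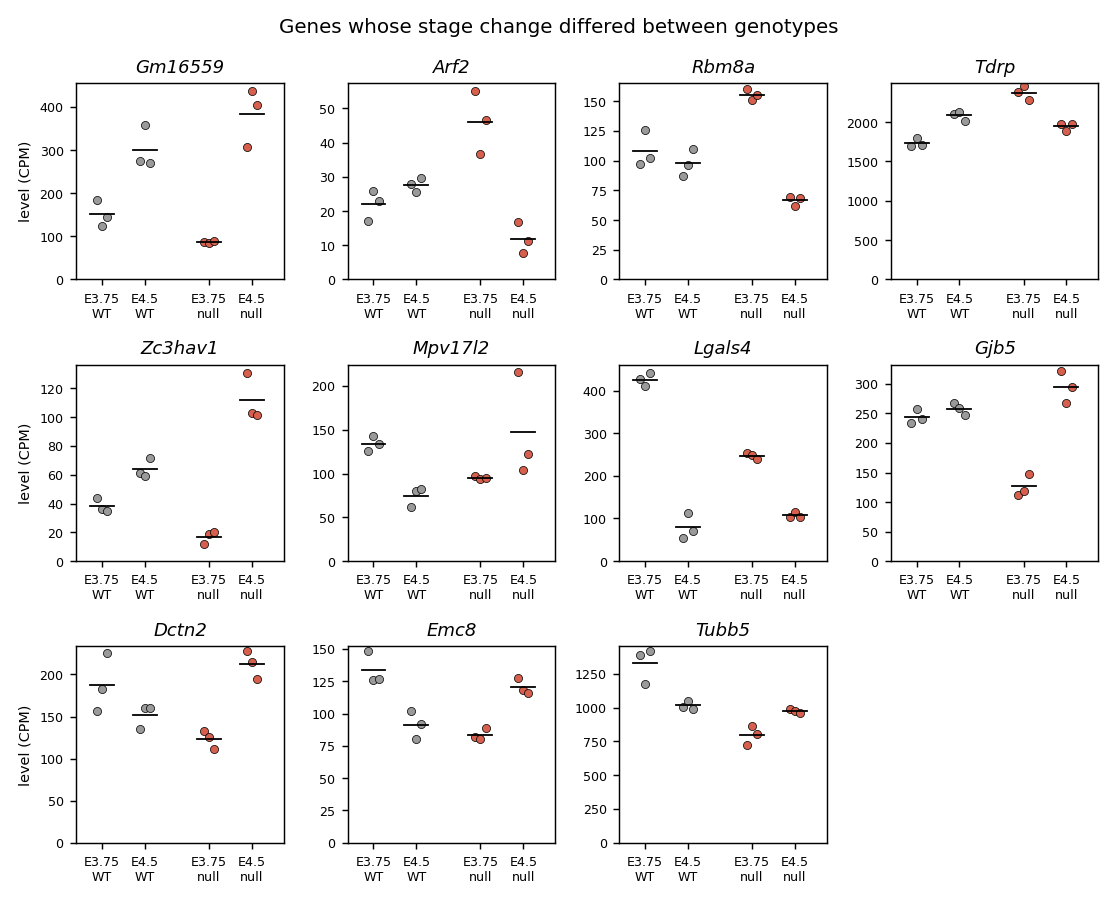
Level in CPM of 11 genes whose stage change differed between genotypes, in each library (points) with the group mean (bar), for wild type (grey) and Oct4 null (red) embryos. Zc3hav1 and Gjb5 start below wild type and rise in null embryos, and Arf2 and Rbm8a start above wild type and fall.

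Genes of the oocyte, of the uterus or oviduct and of cumulus cells used as markers of other cells (Zp3, Gdf9, Bmp15, Ovgp1, Pgr, Ltf, Amh, Has2 and Tnfaip6) were in no comparison, since none was in both tables. Of the oocyte and maternal list 3 of 28 members were measured. Khdc3, of the maternal complex beneath the oocyte surface, went from 1760 to 1902 CPM to 992 to 1118 CPM, a change of -0.80 (limma, adjusted p = 1.10e-05), and Ooep of the same complex rose by 0.42, a call lost with the first 2 libraries (adjusted p = 0.083). The blood sum of Hba-a1 and Hbb-bs spread from 157 to 402 CPM at E3.75 and from 128 to 888 CPM at E4.5 in null embryos, and no globin gene passed with all libraries. Hbb-bs passed without E4.5 null library 2 (a change of 1.25, limma, adjusted p = 0.0234), and 1 of the 3 globin genes fell without E4.5 null library 1. Counts without the E4.5 library that held the most of it are given above. Tubb5, Eef1a1, Pramel5, Pramel6, Trim43c, H2-Q7, Lgals4 and the globin genes have close copies in the genome, and the way reads were shared between copies is not given in the sources used here.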

How the data were processed

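RNA of whole mouse embryos was sequenced from the 3′ end, and E2.5 libraries were not used here. The authors deposited CPM values, 1 table for each stage, with edgeR and the mm9 build named by the submitters' processing notes. Which aligner, counter and annotation they used is not given in the sources used here. Columns sum to 1000000, and in the deposited tables every gene reaches about 10.4 CPM in at least 3 of the 6 libraries. Values are whole multiples of 1 read's worth (79158 of 79158, within 0.01 reads), which gives the depth. The 3 wild type libraries of E4.5 share 1 column name and are called A, B and C. Symbols were found for 5795 of 5882 genes by identifier.

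On log2(CPM + 1), limma 3.58.1 (R 4.3.3) ran two-sided with a variance trend, with p-values adjusted by Benjamini-Hochberg over 5882 genes at a threshold of 0.05. A change on this scale understates that of low genes. Null and wild type changes used 6 libraries each, and their difference 12. The labels do not say that libraries of a group came from separate litters, so p-values cover only the spread among these libraries, which may be technical. edgeR 4.0.16 and DESeq2 1.42.0 on recovered reads, 2 other scalings (TMM factors, DESeq2 size factors), a pseudocount of 0.1 or 5, a minimum mean of 10 CPM, thinned reads, left-out libraries, a replicate block and a fit over 12 libraries were alternatives. The fits were also run on simulated reads of independent libraries, which cannot show how they behave where libraries are not independent.

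Genes are named by rule: Pou5f1, 15 lineage genes where in both tables, the 12 greatest changes per direction among called genes with a symbol, a mean of at least 10 CPM and no overlap, the 6 greatest with at least 200 CPM, up to 4 called members of each list by smallest p (2 with the smallest p where none was called), and the 8 greatest differences per direction. Other members are named where a count of a list is spelled out. The members, lists and rules were chosen with earlier results of these data known. Promoter windows of RefSeq were matched by symbol for 4414 genes.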

Additional observations from a re-analysis of the deposited data

Results flagged for a closer look

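For 11 named genes the change from E3.75 to E4.5 differed between Oct4 null and wild type embryos by limma's test of the difference, on the log2(CPM + 1) scale. It was higher in null embryos for Zc3hav1 (1.94), Mpv17l2 (1.40), Lgals4 (1.28), Gjb5 (1.14), Gm16559 (1.11), Dctn2 (1.07), Emc8 (1.07) and Tubb5 (0.67). It was lower for Arf2 (-2.25), Rbm8a (-1.07) and Tdrp (-0.55). Of these, Tubb5, Emc8 and Tdrp passed in both genotypes in opposite directions. Of the 12 fits that left out 1 library, Zc3hav1 and Gjb5 passed in all 12, Tdrp in 6, and the other 8 in 2 to 4. With TMM factors Gm16559, Emc8, Mpv17l2 and Tubb5, all higher in null embryos, lost their call (limma, adjusted p = 0.0547 to 0.0634).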

How the results depend on the processing

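Counts moved when fewer libraries were fitted. With the first 2 libraries of each group the null counts moved from 1112 and 1236 to 500 higher and 597 lower, the wild type counts from 776 and 1243 to 428 and 689, the changes shared by the genotypes from 1413 to 634, and the differences between genotypes from 12 to 0. DESeq2 called 689 lower in wild type, where it left 229 adjusted p undefined, and 45 differences, with 2737 undefined. edgeR called 42 differences and thinned reads gave 7. Leaving out 1 library at a time gave 837 to 1323 higher and 879 to 1441 lower in null embryos, 553 to 750 higher and 922 to 1264 lower in wild type, 1157 to 1515 late blastocyst changes in null embryos that were called the same way in wild type, and 2 to 39 differences.

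Same-numbered null libraries correlated at 0.0023, 0.027 and 0.021 in their deviations from the group means, and the other pairs at -0.030 to 0.011. Deviations from the mean of a small group are tied to each other, so these values do not decide whether the replicate numbers pair the libraries. With the replicate number as a block 1065 genes rose and 1179 fell, and 1385 changes were shared. Of the 118 named genes called in null embryos, 95 kept their call under every alternative that gave a value. The signs of 5 named genes turned, none of them called. With thinned reads Pdgfra was at 0.0951, Eomes at -0.0321 and Xist at -0.3214. Leaving out 1 library gave -0.0625 (E3.75 null library 2) to 0.0873 for Eomes and -0.1623 (E4.5 null library 1) to 1.2545 for Hbb-bs. It gave -0.3446 (E4.5 null library 1) to 1.2719 for Hbb-bt and -0.0693 (E4.5 null library 2) to 0.3267 for Xist, which was at -0.0224 without E3.75 null library 1. The cause of these changes was not tested. One read in null library 1 of E4.5 equals 2.77 CPM, so genes near 10 CPM rest on few reads there.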
